A study of Homo sapiens with 18 samples.

Results

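The comparison set LNCaP cells treated with VPC-13789 against cells that received the vehicles alone, both without added androgen. Its fold changes compare 6 of the 18 samples of the series, 3 biological replicates in each group. They cover 27574 genes of the 27599 rows that the authors' deposited table holds. In the other 25 rows a date stands where a gene symbol should be. The average counts are identical in all 5 deposited comparisons, so a joint fit over all 18 samples is assumed. The standard errors and p-values then draw on the spread within all 6 groups, not on these 6 samples alone. LNCaP is an established human prostate cancer line whose androgen receptor responds to androgens. Both groups were kept for 48 h in charcoal-stripped serum, a serum depleted of steroid hormones, before they were treated for 6 h and harvested. The control group received DMSO and ethanol (01_DMSO_ETOH), and the treated group received VPC-13789 and ethanol (06_VPC13789_ETOH). In the series, the drug groups without DHT are numbered in a run apart from all other groups, vehicle included. Treatment and that run cannot be told apart here, and the labels name no batch. The labels give a concentration of 3 µM for VPC-13789 together with 10 nM dihydrotestosterone (DHT), chosen from a published IC90. The same concentration is taken to apply without DHT, where the labels name the compound but no dose. VPC-13789 is known here by its code alone, and the series title names another compound, VPC-13822, which is said there to block the receptor's binding function-3, a surface patch apart from the hormone pocket. Groups treated with DHT, with DHT and VPC-13789, with DHT and enzalutamide (1.5 µM, a clinical antagonist of the receptor) and with enzalutamide without DHT serve below for comparison, each with 3 replicates. All of these groups are cultures of 1 cell line, and no value of a single sample was analysed here, so replicates are shown as group means with standard errors (SE) and not one by one.

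As background, the androgen receptor is a transcription factor that testosterone or DHT activates. In prostate cells it raises secreted proteases such as KLK3 (prostate-specific antigen) and KLK2 and the membrane protease TMPRSS2. Cholesterol supply is set by another circuit. When sterols are scarce, SREBP factors turn on the genes of cholesterol synthesis and uptake and INSIG1, whose protein in turn holds SREBP back in the endoplasmic reticulum; when sterols are plentiful, SREBP is kept inactive. Oxysterols also activate the liver X receptors, which raise the cholesterol exporter ABCG1 and MYLIP, a ubiquitin ligase that limits cholesterol uptake.

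The luminal prostate identity of the cells was visible in the deposited averages. All 8 luminal markers were well expressed, with averages from 1510 to 27958 normalized counts over all samples in the authors' deposited table. Of 15 markers of basal, stromal, immune, endothelial and neuroendocrine cells, 9 were listed, and 5 of those averaged under 10; KRT5, TP63, COL1A2, CD3E, PECAM1 and INSM1 had no row. The higher ones in the authors' deposited table were VWF with an average of 1014, COL1A1 with 316, VIM with 130 and SYP with 53.3. The group means recovered for these 9 markers summed to 1428 with vehicle and 1356 with VPC-13789.

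Promoter sequences of INSIG1 and FADS1 are shown because they had the lowest p of all genes with an average of 100 normalized counts or more (FADS1 encodes the delta-5 desaturase of polyunsaturated fatty acid synthesis). Each sequence runs 5′ to 3′ from 250 bases before to 50 bases after the start of the gene in RefSeq (GRCh38.p14). INSIG1 lies on the plus strand at chr7:155297628-155297927, and FADS1 on the minus strand at chr11:61816954-61817253. Capitals mark a CCAAT box (CCAAT, or ATTGG on the other strand) and an E-box (CACGTG), each searched on both strands, as was the sterol regulatory element TCACNCCAC.
INSIG1: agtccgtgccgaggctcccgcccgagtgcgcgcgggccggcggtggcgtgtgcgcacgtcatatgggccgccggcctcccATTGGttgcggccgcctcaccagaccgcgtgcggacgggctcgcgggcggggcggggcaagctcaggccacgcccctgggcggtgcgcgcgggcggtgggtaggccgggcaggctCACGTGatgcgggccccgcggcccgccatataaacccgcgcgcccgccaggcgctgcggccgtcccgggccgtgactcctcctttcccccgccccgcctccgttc
FADS1: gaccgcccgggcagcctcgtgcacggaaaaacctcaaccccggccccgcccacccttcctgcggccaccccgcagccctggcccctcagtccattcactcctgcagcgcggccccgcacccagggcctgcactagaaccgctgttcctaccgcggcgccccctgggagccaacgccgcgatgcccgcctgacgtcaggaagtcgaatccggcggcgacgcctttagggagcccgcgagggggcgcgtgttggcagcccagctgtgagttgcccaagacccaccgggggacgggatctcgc
The INSIG1 window held 1 CCAAT box and 1 E-box, its GC content was 78.3%, and the letters TCACNCCAC are not in it. The FADS1 window held none of these motifs, with a GC content of 72%. Of the 36 genes in the lists of cholesterol and fatty acid synthesis, 28 had a promoter in the RefSeq table, and a CCAAT box was found in 22 of the 28 (78.6%), against 39.7% of all 27305 gene symbols in that table and 34.6% of its 35116 promoters. The E-box was found in 4 of the 28 (14.3%) against 8.77% of symbols and 7.26% of promoters, and TCACNCCAC in 1 (SREBF2) against 1.39% and 1.13%. All symbols were counted whatever their expression, while 24 of 25 cholesterol and 11 of 11 fatty acid genes averaged at least 100 normalized counts. The shares over all symbols are therefore not a like-for-like background. A gene counted where any of its windows held the motif. These matches describe letters in windows of the same length and are not evidence of binding.

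VPC-13789 without DHT gave no called gene: of 27574 genes in the authors' deposited table, 0 had a DESeq2 adjusted p under 0.05 (0%). SYTL4 came nearest, with an adjusted p of 0.372 in the authors' deposited table; it is a granule-tethering protein gene averaging 69.1 normalized counts, its log2 change was -0.85 (SE 0.19), and it was named after its values were seen, since it lies under the average of 100 that the rule for named genes asks for. At an unadjusted p under 0.05 the authors' deposited table held 212 genes (0.769%), of which 98 were higher (0.355%) and 114 lower (0.413%), and 6 had p under 0.001. Uniform p-values would put 5% of genes under 0.05. Among the 10819 genes averaging at least 100, the authors' deposited table had 33 with p under 0.05, 8 higher and 25 lower.

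The changes themselves were narrow. In the authors' deposited table the log2 changes of the 10819 genes averaging at least 100 had a median within 0.01 of 0 and an SD of 0.14, and the central 95% of them ran from -0.30 to 0.23. The SE in the authors' deposited table had a median of 0.27 over the same genes, so the spread of the changes over genes was smaller than their stated error. Accordingly the Wald statistic, the log2 change divided by its SE, had an SD of 0.53 in the authors' deposited table, where a standard normal statistic has 1. The precision still bounds many genes: the 95% interval lay within a 2-fold change either way for 8796 of the 10819 genes (81.3%) and within 0.5 on the log2 scale for 3842 (35.5%).

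Large fold changes came only with low counts. The authors' deposited table listed 3687 genes at 2-fold or more, but their median average was 0.686 normalized counts, the highest was 50.9, and 3668 averaged under 10. Among genes averaging at least 100, 0 reached 2-fold and 6 reached 1.5-fold. INSIG1 was on the lower side. The 4 on the higher side were ABCG1 and 3 rows of RNA5-8SN2, copies of the 5.8S ribosomal RNA that share reads, at 0.61 each (SE 0.49) in the authors' deposited table. The plot of changes by level shows INSIG1 below and ABCG1 above the body of genes.

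**Figure D1:**
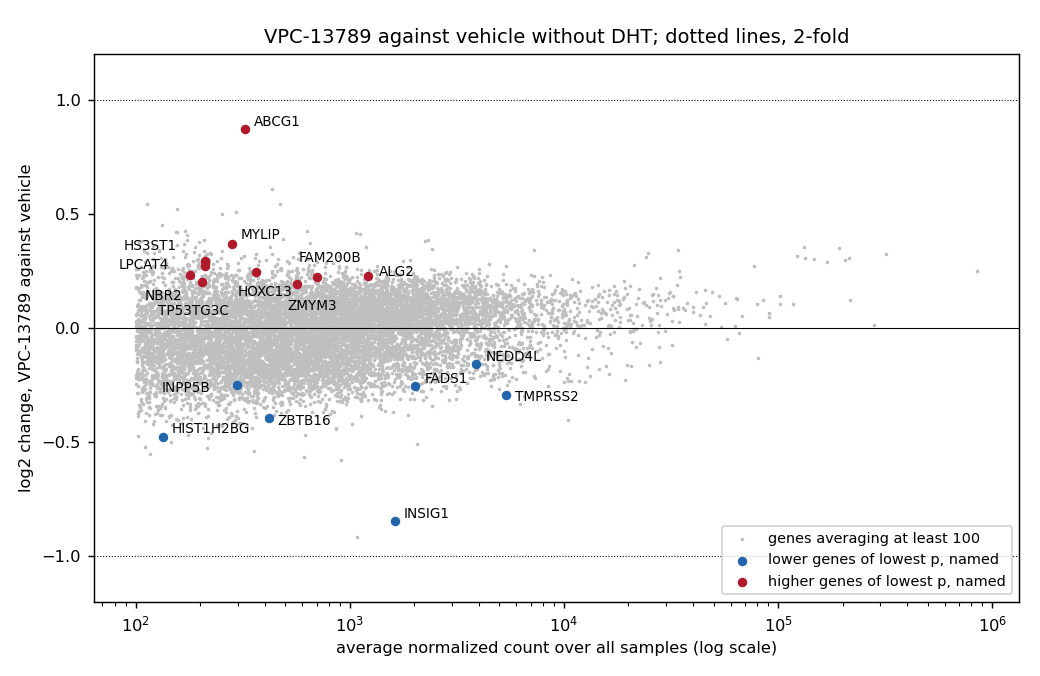
Log2 change between VPC-13789 and vehicle without DHT (vertical) against the average normalized count over all samples (horizontal, log scale) for the 10819 genes averaging at least 100; coloured points are the lower and higher genes of lowest p that the text names. No point reaches the dotted 2-fold lines, and of the named genes INSIG1 (-0.85) and ABCG1 (0.87) lie farthest from 0.

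INSIG1, the sterol-sensing brake on SREBP, was among the genes with the widest difference. INSIG1 had recovered group means of 2015 normalized counts with vehicle and 1120 with VPC-13789, 1.80-fold lower, and 1897 with enzalutamide. The authors' deposited table gives INSIG1 a log2 change of -0.85 (SE 0.21, 95% interval -1.27 to -0.43, unadjusted p = 7.39e-05, DESeq2 adjusted p = 0.679). INSIG1 lies at chr7:155297776-155310235 on the plus strand and is protein-coding in GENCODE release 29 on GRCh38.

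In the opposite direction, ABCG1, the cholesterol exporter on chromosome 21 (chr21:42199689-42297244, plus strand), had recovered means of 281 with vehicle and 514 with VPC-13789, 1.83-fold higher, and 332 with enzalutamide. Its log2 change in the authors' deposited table was 0.87 (SE 0.28, 95% interval 0.32 to 1.42, unadjusted p = 0.00182, DESeq2 adjusted p = 1). MYLIP stood at 278 with vehicle and 358 with VPC-13789 in recovered means. The authors' deposited table gives MYLIP 0.37 (SE 0.17, unadjusted p = 0.0268, DESeq2 adjusted p = 1). Because ABCG1 and MYLIP were among the higher genes of lowest p, a list of 6 liver X receptor targets was added after their values were seen. The other 4 showed no such shift in the authors' deposited table: ABCA1, averaging 25.2 normalized counts, was at -0.08 (SE 0.56), LPCAT3 at 0.09 (SE 0.28), SMPDL3A at -0.04 (SE 0.31) and NR1H3 at 0.08 (SE 0.36).

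Cholesterol synthesis and uptake genes lay on the lower side in 20 of 25 cases, with 0 called and 3, INSIG1 and SQLE among them, at an unadjusted p under 0.05 in the authors' deposited table. Their median log2 change was -0.16, beside 0.00 over all genes. SQLE, the epoxidase that commits squalene to sterols, had recovered means of 1005 with vehicle, 742 with VPC-13789 and 970 with enzalutamide; the authors' deposited table gives -0.44 (SE 0.22, unadjusted p = 0.0481). Lower values with wide errors in the authors' deposited table belonged to HMGCS1, the synthase that makes HMG-CoA (-0.58, SE 0.41), MSMO1 (-0.47, SE 0.35), STARD4 (-0.47, SE 0.56), IDI1 (-0.44, SE 0.51) and CYP51A1 (-0.36, SE 0.32). SREBF2, which encodes SREBP-2 itself, was at -0.10 (SE 0.29) in the authors' deposited table. The authors' deposited table puts EBP (0.10), PMVK (0.12), TM7SF2 (0.15) and MVD (0.00) on the higher side, each with an SE of more than 0.3. The recovered means of all 25 genes summed to 56123 with vehicle and 50696 with VPC-13789.

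Fatty acid synthesis genes, which SREBP-1 drives, were lower in 10 of 11 cases, with a median of -0.13 and 0 called. FADS1 (chr11:61799625-61829318, minus strand) was the only one at an unadjusted p under 0.05. Its recovered means were 2119 with vehicle, 1774 with VPC-13789 and 2066 with enzalutamide, and the authors' deposited table gives -0.26 (SE 0.06, 95% interval -0.38 to -0.13, unadjusted p = 5.36e-05, DESeq2 adjusted p = 0.679). The stearoyl-CoA desaturase gene SCD stood at -0.20 (SE 0.17), the acetyl-CoA carboxylase gene ACACA at -0.11 (SE 0.09) and the fatty acid synthase gene FASN at -0.01 (SE 0.43) in the authors' deposited table. SREBF1, at 0.14 (SE 0.29) in the authors' deposited table, was the 1 member on the higher side.

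The same lipid genes could be read against enzalutamide without DHT, which is a difference between the drug-treated groups because the shared vehicle group cancels. The concentrations differ, 3 µM against 1.5 µM. No gene passed the Wald test of this difference (lowest Benjamini-Hochberg adjusted p = 1, with 252 genes, 0.914%, at an unadjusted p under 0.05). INSIG1 was lower with VPC-13789 than with enzalutamide by a log2 difference of -0.76 (95% interval -1.18 to -0.34, unadjusted p = 0.000367) and FADS1 by -0.22 (-0.34 to -0.10, unadjusted p = 0.000517). ABCG1 was higher by 0.63 (0.08 to 1.18, unadjusted p = 0.0243). Of the 25 cholesterol genes, 23 (92%) were lower with VPC-13789 than with enzalutamide, with a median difference of -0.18, where 45.9% of the 10819 genes averaging at least 100 were lower and their median difference was 0.01. Fatty acid genes were lower in 9 of 11 cases (median difference -0.12). Against vehicle, the authors' deposited table for enzalutamide puts the median of the 25 cholesterol genes at -0.01. In the groups with DHT, 13 of the 25 cholesterol genes were lower with VPC-13789 than with enzalutamide (median difference -0.10). There 7 of the 11 fatty acid genes were lower (-0.05), beside 5325 of the 10819 genes averaging at least 100. After centring on genes of like GC content, the counts with DHT were 16 of 25 (-0.14) and 5 of 11 (0.01).

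**Figure D2:**
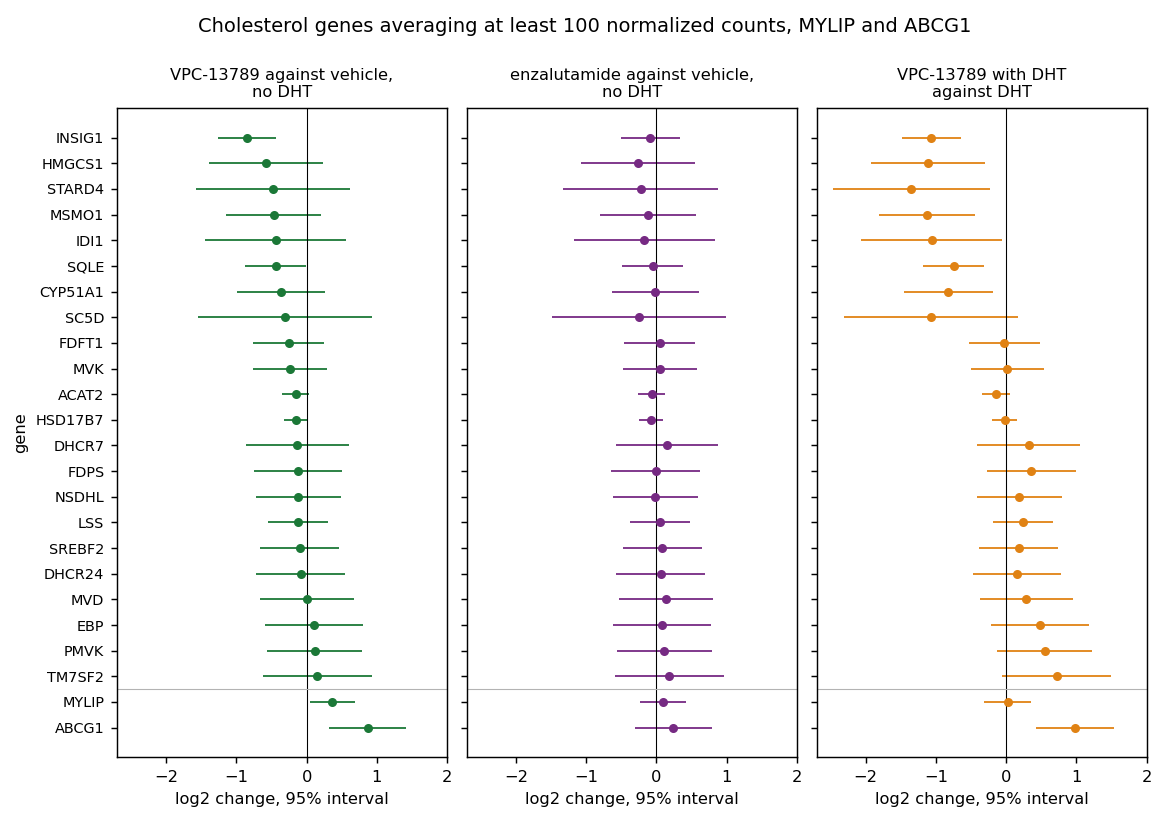
Log2 changes with 95% intervals (horizontal) of 22 cholesterol genes averaging at least 100 normalized counts, with MYLIP and ABCG1 under the line, in the authors' tables for VPC-13789 without DHT, enzalutamide without DHT and VPC-13789 with DHT. INSIG1 lies under 0 in both VPC-13789 panels and near 0 in the enzalutamide panel.

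With DHT present, VPC-13789 was compared with DHT alone in 6 other samples, none of them shared with the comparison without DHT. There the authors' deposited table has 42 called genes (0.152%), and INSIG1 and FADS1 are among the 38 that fell (0.138%): INSIG1 at -1.07 (SE 0.21, DESeq2 adjusted p = 0.000998) and FADS1 at -0.29 (SE 0.06, DESeq2 adjusted p = 0.00542). Not called in the authors' deposited table were SQLE at -0.75 (SE 0.22, adjusted p = 0.144) and ABCG1 at 0.98 (SE 0.28, adjusted p = 0.122). The effect without DHT minus that with DHT was 0.22 for INSIG1 (95% interval -0.37 to 0.81), 0.03 for FADS1 (-0.15 to 0.21) and -0.11 for ABCG1 (-0.89 to 0.67). These intervals do not show that the effects are equal. MYLIP, at 0.02 (SE 0.17) with DHT in the authors' deposited table, did not show the value it had without DHT, although the interval of that difference (-0.12 to 0.81) includes 0. As a list the cholesterol genes had 14 of 25 lower with DHT and a median of -0.03 in the deposited values. After each change was centred on genes of like GC content, with which the changes with DHT varied widely, 19 of the 25 were lower with DHT and the median was -0.23.

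Androgen receptor genes without hormone are the other group that the study's design points to. In a panel of 12 genes tied to the receptor 0 were called, 9 were lower and 2, TMPRSS2 among them, had an unadjusted p under 0.05. TMPRSS2 (chr21:41464551-41531116, minus strand) had recovered means of 1383 with vehicle, 1127 with VPC-13789 and 1121 with enzalutamide, and the authors' deposited table gives it -0.30 (SE 0.10, 95% interval -0.50 to -0.09, unadjusted p = 0.00491, DESeq2 adjusted p = 1). The levels in all 3 groups without DHT lay far under the recovered mean of the DHT group, 12970.

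The rest of the panel lay closer to 0. KLK3 had recovered means of 15915 with vehicle and 17083 with VPC-13789, and the authors' deposited table puts its change at 0.10 (SE 0.28, 95% interval -0.46 to 0.66). FKBP5, a co-chaperone of steroid receptors, stood at 839 with vehicle and 787 with VPC-13789, a change of -0.09 (SE 0.22) by the authors' deposited table. That sign turned to 0.04 after the centring on GC content described further on. KLK2 was at 0.06 (SE 0.30), SLC45A3 at -0.23 (SE 0.27), SGK1 at -0.17 (SE 0.27), NDRG1 at -0.08 (SE 0.24), PMEPA1 at -0.05 (SE 0.13) and BAMBI, an androgen-repressed gene, at 0.05 (SE 0.08) in the authors' deposited table. For 11 of the 12 genes the 95% interval excluded a 2-fold change either way; the exception was STEAP4, which averaged 11.1 normalized counts and had -1.42 with an SE of 1.56 in the authors' deposited table. KLK2 and KLK3 are close copies, and reads between them could be split by the counting.

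**Figure D3:**
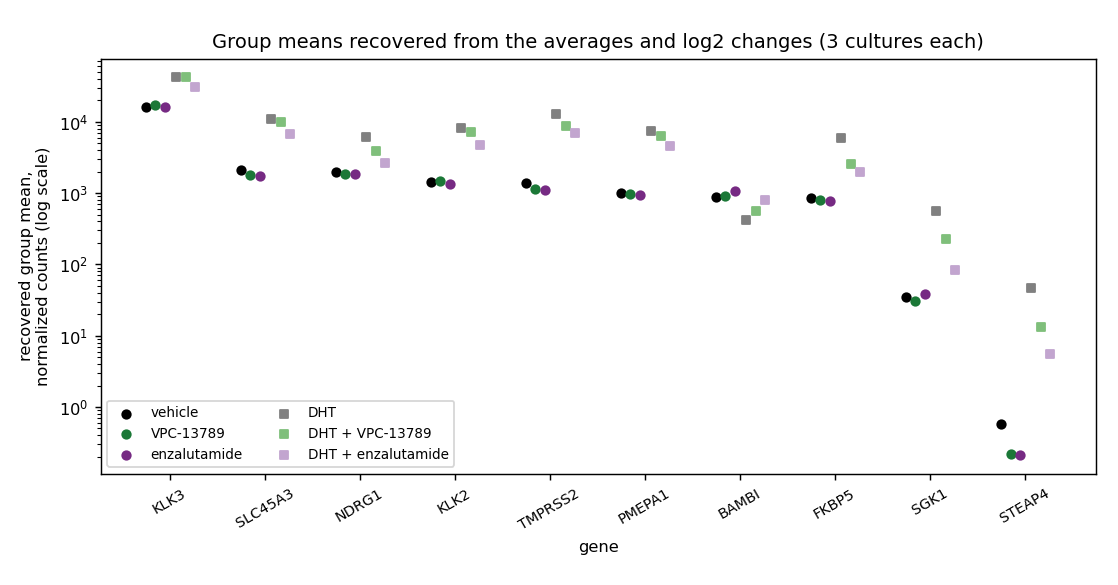
Recovered group means in normalized counts (vertical, log scale) of 10 panel genes in the 6 groups, circles without DHT and squares with DHT, each the mean of 3 cultures. Without DHT the 3 groups lie close together for each gene except STEAP4, which is near 0 counts; TMPRSS2 is lower with either drug than with vehicle.

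An androgen receptor activity score of 20 genes had 16 lower, 0 were called, and the median was -0.14; TMPRSS2 was again among the 2 with an unadjusted p under 0.05. Of 100 hallmark androgen response genes, 73 were lower with a median of -0.09, and 4 had an unadjusted p under 0.05, FADS1, INSIG1 and TMPRSS2 among them. That list therefore also holds the leading lipid genes. The 15 androgen-repressed genes divided into 8 higher and 7 lower (median 0.01). Of the 10819 genes averaging at least 100, 50.9% were lower. The authors' deposited table for enzalutamide without DHT, which uses the same vehicle samples, has medians of -0.17 for the score and -0.11 for the hallmark genes. There 18 of the 20 and 78 of the 100 were lower, beside 5539 of the 10819. Between the drugs, 15 of the 20 and 59 of the 100 were higher with VPC-13789 (median differences 0.04 and 0.01), beside 5857 of the 10819. In the authors' deposited table for VPC-13789 with DHT the score had a median of -0.94. There 5 of its 20 genes (25%) were called, beside 0.333% of the 10819 genes averaging at least 100. After centring on genes of like GC content, the score's median with DHT was -0.51.

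The difference between the effects without and with DHT was tested directly over all genes, and 0 passed (394 genes, 1.43%, at an unadjusted p under 0.05, lowest Benjamini-Hochberg adjusted p = 0.345). The lowest p values belonged to F5, coagulation factor V, with a difference of 1.84 (95% interval 1.01 to 2.67, adjusted p = 0.345), and CENPN, a kinetochore gene, with 0.70 (0.37 to 1.02, adjusted p = 0.345). F5 had recovered means of 20.1 with vehicle and 31.5 with VPC-13789, against 247 with DHT and 108 with DHT and VPC-13789. CENPN stood at 793 and 760 without DHT, against 3327 and 1968 with it. Next came NCAPD3, a condensin subunit (0.73, adjusted p = 0.754), SHROOM3, a regulator of cell shape (0.39), and FOSL2, an AP-1 subunit (0.49), the last 2 at an adjusted p of 1. All 5 genes were higher in the DHT group than with vehicle, and in the authors' deposited table for VPC-13789 without DHT their changes ran from -0.09 for NCAPD3 to 0.65 for F5.

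Across the 2 settings, 25 genes averaging at least 100 were lower without DHT at an unadjusted p under 0.05. They could be followed in the samples with DHT, whose fold changes the choice did not use. There 23 of the 25 were lower and 6 were called in the authors' deposited table; of the 8 higher genes, 6 were higher and 0 called. Over all 10819 genes averaging at least 100, 51.0% were lower with DHT, 49.0% were higher and 0.333% were called. The share called is not a like-for-like background. The choice also used averages over all samples and SE from the assumed joint fit, which favours genes of small SE in either setting. Over 10777 nuclear genes averaging at least 100, the log2 changes of both settings had a Pearson r of 0.83, a description across genes that are not independent, and the changes with DHT were wider (slope 2.74). Much of that likeness went with GC content: after centring each change on genes of like GC content, r was 0.62. After that centring, 17 of the 25 lower genes were lower with DHT and 8 higher, and the 8 higher genes divided into 4 higher and 4 lower. With enzalutamide without DHT, 23 of the 25 lower genes and 0 of the 8 higher genes were lower in the deposited values. Over the 10819 genes averaging at least 100, 5539 were lower there. That comparison uses the same vehicle samples as the choice, so its signs are not independent of it.

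Other genes of lowest p were of varied function. HIST1H2BG, a histone H2B gene with close copies, had recovered means of 167 with vehicle and 120 with VPC-13789 and -0.48 (SE 0.13, unadjusted p = 0.000377) in the authors' deposited table. ZBTB16 (chr11:114059593-114250676, plus strand), a transcriptional repressor that androgens and glucocorticoids induce, stood at 218 with vehicle, 166 with VPC-13789 and 145 with enzalutamide. The authors' deposited table gives ZBTB16 -0.39 (SE 0.12, unadjusted p = 0.000626, DESeq2 adjusted p = 1) with VPC-13789. With enzalutamide ZBTB16 was the single called gene, for which the authors' deposited table gives -0.59 (adjusted p = 0.0139; 1 of 27574 genes, 0.00363%); that comparison uses the same vehicle samples. The difference between the drugs, 0.19 (95% interval -0.03 to 0.42, unadjusted p = 0.0934), did not pass the test. Further lower genes in the authors' deposited table were INPP5B, an inositol polyphosphate phosphatase (-0.25, SE 0.09) and NEDD4L, a ubiquitin ligase of ion channels (-0.16, SE 0.06). With DHT the authors' deposited table has NEDD4L among the genes that fell (-0.27, SE 0.06, adjusted p = 0.00373).

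On the higher side after ABCG1 came ALG2, a mannosyltransferase of N-glycan assembly, with recovered means of 1065 and 1246. The authors' deposited table gives ALG2 0.23 (SE 0.08, unadjusted p = 0.00384, DESeq2 adjusted p = 1), but -0.08 (SE 0.08) with DHT. In the authors' deposited table HS3ST1, a heparan sulfate sulfotransferase, was at 0.29 (SE 0.13), LPCAT4, a lysophospholipid acyltransferase, at 0.27 (SE 0.13), HOXC13, a homeobox factor, at 0.24 (SE 0.11), and TP53TG3C at 0.23 (SE 0.12). FAM200B (0.22, SE 0.11), the noncoding NBR2 beside BRCA1 (0.20, SE 0.10) and ZMYM3, a zinc finger gene (0.19, SE 0.09), complete the 10 in the authors' deposited table. Their unadjusted p ran up to 0.0613.

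Stress pathways were described by the same counts. Of 14 ATF4 amino acid stress genes, 12 were higher with a median of 0.13, and 0 had an unadjusted p under 0.05. In the authors' deposited table the glutathione-degrading enzyme gene CHAC1 was at 0.51 (SE 0.46), the pseudokinase gene TRIB3 at 0.39 (SE 0.39), SESN2 at 0.35 (SE 0.29) and ATF4 itself at 0.23 (SE 0.12). The recovered means of ATF4 were 6903 with vehicle, 8072 with VPC-13789 and 7206 with enzalutamide. Against enzalutamide, 13 of these 14 genes were higher with VPC-13789, with a median difference of 0.15. Of 15 genes of the unfolded protein response, 12 were higher with a median of 0.09, among them HERPUD1 at 0.34 (SE 0.19), XBP1 at 0.27 (SE 0.23) and the chaperone gene HSPA5 at 0.06 (SE 0.10) in the authors' deposited table. Against enzalutamide, 14 of these 15 were higher, with a median difference of 0.05. Of the 10819 genes averaging at least 100, 5857 were higher with VPC-13789 than with enzalutamide, with a median difference of 0.01. So were 20 of 20 cytosolic ribosomal protein genes and 3 of 12 heat shock genes. For VPC-13789 with DHT against DHT, 8 of the 15 unfolded protein response genes were lower (median -0.0007), and 4 of the 14 ATF4 genes (median 0.21). Between the drugs with DHT, 5 of the 15 and 6 of the 14 were lower with VPC-13789 (median differences 0.09 and 0.19). No gene of either list passed a test without DHT.

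Lists with medians nearer 0 were the heat shock response (median -0.04), hypoxia (-0.02), oxidative stress (0.02), interferon response (0.04), S phase (0.03), proteasome subunits (0.03), glucocorticoid-regulated genes (-0.00) and the androgen receptor's partners (-0.01). The p53 targets were higher in the median by 0.09 and the MYC targets of ribosome biogenesis lower by -0.09. Of the 32 lists, which hold 543 entries with 13 not in the tables, 0 contained a called gene and 14 had a median below 0. The 81 genes (0.294%) that enzalutamide lowered with DHT divided without DHT into 33 higher and 48 lower with VPC-13789 (median -0.03). The 38 genes that VPC-13789 lowered with DHT were lower in 31 cases, with a median of -0.08. Beside these, 50.9% of the genes averaging at least 100 and 48.3% of all genes were lower. After centring on GC content, 51 of the 81 and 25 of the 38 were lower.

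**Figure D4:**
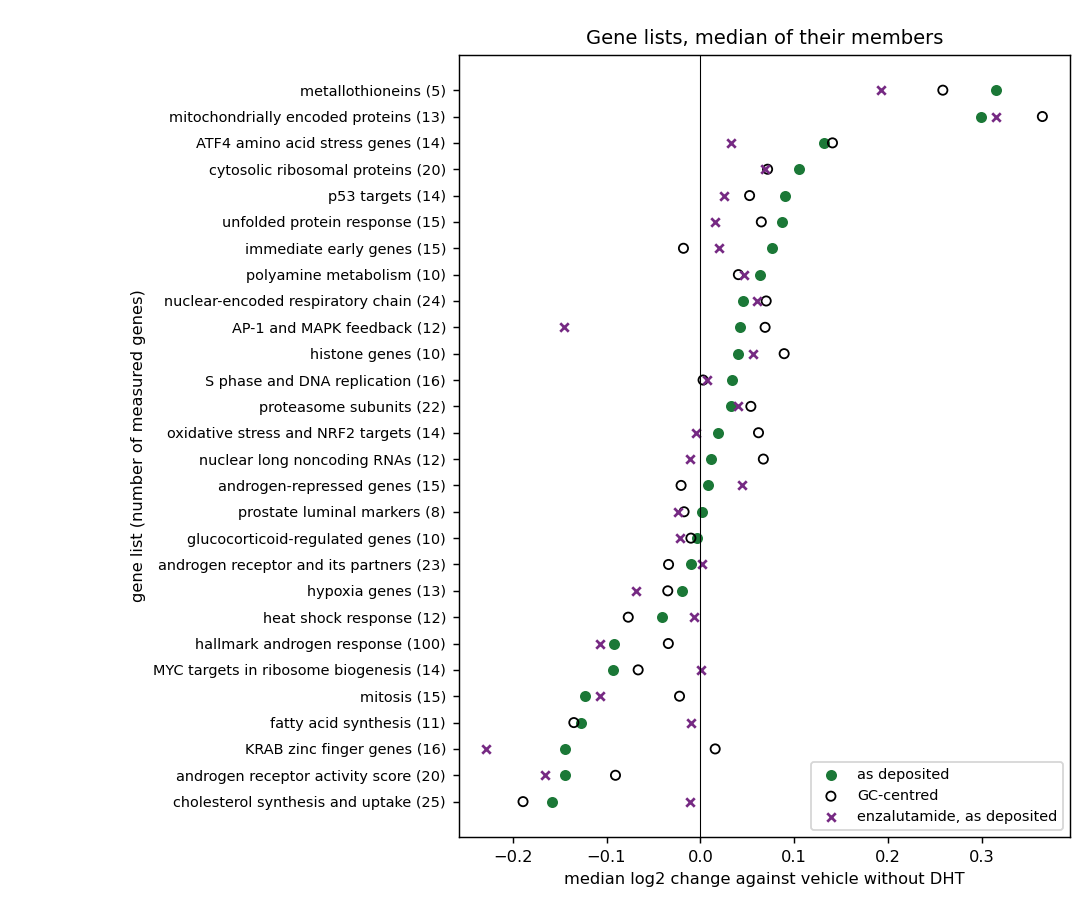
Median log2 change against vehicle without DHT (horizontal) of gene lists, with VPC-13789 as deposited (filled), with VPC-13789 after centring on GC content (open) and with enzalutamide as deposited (cross). Lists with fewer than 4 members averaging at least 100 normalized counts are not drawn. Cholesterol synthesis lies lowest with VPC-13789, at -0.16, and near 0 with enzalutamide; mitochondrially encoded genes lie near 0.3 with both.

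Mitochondrially encoded genes were higher in 13 of 13 cases, from 0.22 to 0.35 in the authors' deposited table, with a median of 0.30, SE of 0.34 or more and 0 with an unadjusted p under 0.05. The same genes had medians of 0.32 with enzalutamide against the same vehicle samples and 0.74 for VPC-13789 with DHT. Their recovered means summed to 1218800 with vehicle and 1505830 with VPC-13789. Between the drugs the median difference was -0.02. Cytosolic ribosomal protein genes were higher in 19 of 20 cases with a median of 0.10, and the 4 metallothioneins averaging at least 100 (MT2A, MT1X, MT1F and MT1G) lay between 0.15 and 0.37 in the authors' deposited table. KRAB zinc finger genes, whose transcripts are AT-rich, were lower in 14 of 16 cases with a median of -0.14.

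The log2 changes followed the GC content of the transcripts. Over 10777 nuclear genes averaging at least 100, the Spearman rank correlation between the change and GC content was 0.741. In the lowest eighth by GC content (30.2% to 39.2%) the median change was -0.18 and 93.6% of genes were lower; in the highest (60.5% to 74.7%) it was 0.14 and 4.60% were lower. The rank correlation was -0.36 with transcript length and 0.20 with the average count. The same trend had a rank correlation of 0.775 with enzalutamide against the same vehicle samples and 0.816 for VPC-13789 with DHT against DHT. For DHT against vehicle it was 0.498, but for enzalutamide with DHT against DHT the sign was reversed, at -0.322. In the difference between VPC-13789 and enzalutamide without DHT the trend was close to absent, with a rank correlation of -0.09. In the same difference with DHT it was 0.832. The part of this trend in the gene results was not tested, but values centred on genes of like GC content are given beside them here. Centring removed 51.4% of the variance of the log2 changes.

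After centring, INSIG1 was at -0.81, FADS1 at -0.28 and ABCG1 at 0.81, all within 0.1 of the deposited values. The cholesterol genes were lower in 23 of 25 cases (median -0.19) and the ATF4 genes higher in 13 of 14 (median 0.14). TMPRSS2 stood at -0.33, but the androgen receptor score moved to a median of -0.09, with 14 of 20 lower, and the hallmark genes to -0.03, with 58 of 100 lower. The KRAB genes moved to 0.02, with 8 of 16 lower. The mitochondrially encoded genes, at a median of 0.36, were not brought to 0. One gene was called after centring (0.00365% of 27391 genes with a GC content): TFG, a protein of the early secretory pathway, at 0.23 (adjusted p = 0.000465), where the authors' deposited table gives 0.05 (SE 0.04).

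**Figure D5:**
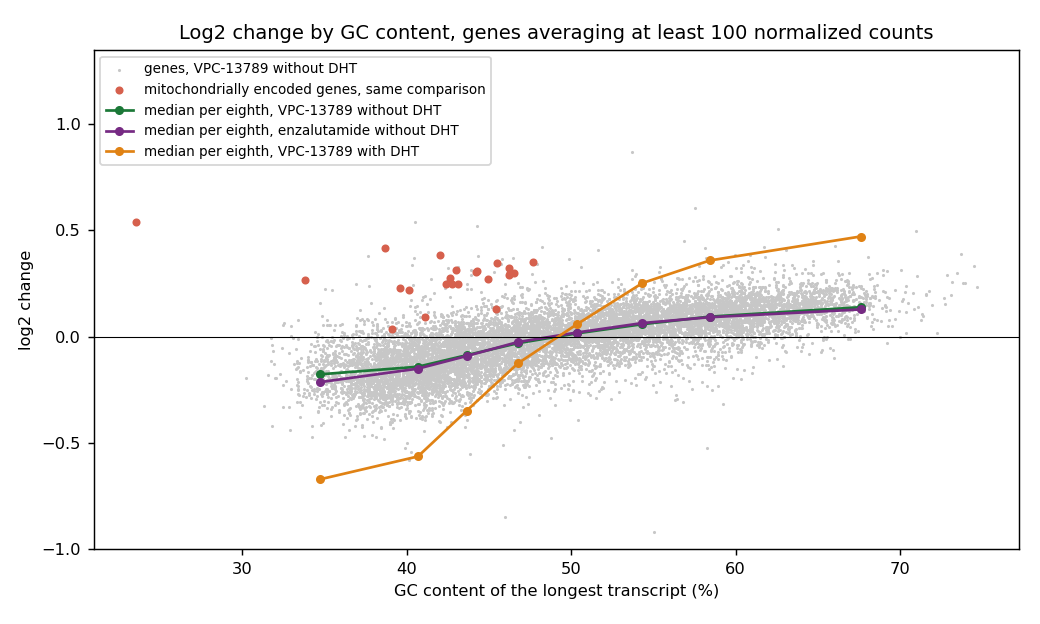
Log2 change of each gene averaging at least 100 normalized counts (grey, vertical) against the GC content of its longest transcript (horizontal) for VPC-13789 without DHT, with medians per eighth of the genes by GC content for that comparison and 2 others. The medians with VPC-13789 and enzalutamide without DHT, which share the vehicle samples, lie side by side, from -0.18 and -0.21 to 0.14 and 0.13, while those of VPC-13789 with DHT run from -0.67 to 0.47; mitochondrially encoded genes lie above the trend.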

How the data were processed

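Libraries of LNCaP polyadenylated RNA were read on a BGISEQ-500; RNA integrity numbers were 9.5 to 10, per the labels' protocols. Per the submitters' processing notes, the tools were FastQC, STAR 2.6.1c with the GRCh38.p12 genome, featureCounts and DESeq2. The annotation, strand setting and filters were not given in these sources, so overlapping and antisense genes cannot be separated.

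The authors deposited, per the file headers, a signal for each gene (baseMean, its normalized count averaged over the samples). The deposited fold changes and SE are on the log2 scale. The Wald statistic, a score, was deposited with its p-value and adjusted p-value. In all 27574 genes the statistic equalled the log2 change over its SE and the p was the two-sided normal p (within 1e-06), and in all 27599 rows the adjusted p was Benjamini-Hochberg over every row. Depth per library is unknown, so precision is given by the SE. Replicates are cultures of a single line, and the p-values cover no other source of variation.

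Group means of normalized counts (3 replicates, 6 groups) were recovered from the averages and the 5 deposited log2 changes. Called means an adjusted p under 0.05. Differences between comparisons were tested by Wald tests with Benjamini-Hochberg adjustment over all genes, taking the root of the summed squared SE for comparisons without shared samples and the root of their mean where the vehicle group is shared. The latter assumes equal variance in the groups. GC content is that of the longest transcript in GENCODE release 29 for 27391 genes (99.3%); centring subtracts the median of nuclear genes averaging at least 100 in 20 bins of GC content and keeps the SE. The Wald steps were run on simulated independent errors drawn with the same SE. That checks the code and cannot test the SE or the assumption of equal variance. Python 3.11.15, numpy 2.4.6, pandas 2.3.3, scipy 1.17.1 and matplotlib 3.10.9 were used.

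Named genes are the called genes; otherwise the 10 of lowest p per direction averaging at least 100; the 12 panel genes; the first 4 members of each list averaging at least 100; and the 5 of lowest p in each difference. Some genes that fall under this rule are not reported here. Further list members were named as examples after their values were seen. Members, lists and tests were chosen with earlier results of these data known. The plan had been for counts per sample; without them the authors' statistics were used.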

Additional observations from a re-analysis of the deposited data

How the results depend on the processing

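The count of 0 called genes held with adjustment over genes averaging at least 10 (lowest adjusted p = 0.208) or 100 (0.400), an adjusted p under 0.1, median centring (0.407) and a t reference with 12 degrees of freedom (1). GC centring gave 1 called gene, GC and length centring 1, and GC centring with adjustment over genes averaging at least 100, chosen after seeing the data, 1. For the effect without minus with DHT, GC centring gave 36 called genes (11 higher, 25 lower) in place of 0; the cause was not tested. FKBP5 reversed from -0.09 to 0.0417 under GC centring. The comparison with enzalutamide had 0 called genes under each alternative run. No paired analysis was possible because the deposited tables hold comparisons and no values per sample, and for the same reason leaving out replicates, another normalization and an edgeR fit were not run. The SE limits what can be seen: at the median SE of 0.27, changes of the usual size (SD 0.14 over genes) are not detectable.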
